A study of Homo sapiens with 6 samples.

Results

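The MYB and HBS1L locus on chromosome 6 was followed by ATAC-seq in K562 cells over a PMA time course. All sites of the deposited site table whose midpoint lay in chr6:134950000-135300000 (GRCh38) were taken, a window of 350 kb, which gave 45 of the 181135 sites of the table. The rule for this choice used coordinates and no measured value, though it was made with earlier results of these data known. K562 is a human leukaemia cell line, labelled wild type here, that grows in suspension and carries an erythroid programme. In ATAC-seq a transposase cuts accessible DNA, and the number of reads over a site measures how open it is. Cells received 25 nM PMA (phorbol 12-myristate 13-acetate, an activator of protein kinase C), which the labels give as a way to induce megakaryocyte differentiation, for 0, 6 or 72 h. Each time had 2 libraries, with the medium changed at 24 and 48 h in the course. The 0 h libraries are the untreated cells, and no vehicle or untreated group at 6 or 72 h was analysed here, so PMA and time in culture cannot be told apart.

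MYB is a transcription factor that keeps blood progenitors cycling and that falls as erythroid and megakaryocytic cells mature. HBS1L, its neighbour on the opposite strand, codes for a GTPase that rescues stalled ribosomes. The interval between the genes holds erythroid enhancers bound by GATA1, TAL1 and LDB1, which loop to the MYB promoter, and it is a main locus of inherited differences in fetal haemoglobin. The best known human elements are named by their distance of 84 and 71 kb upstream of MYB. Sites are named here the same way, by the distance of their midpoint from the RefSeq start of MYB, with minus for the HBS1L side.

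The genes' places set the sections used below (RefSeq, GRCh38.p14). HBS1L spans chr6:134960378-135054822 and is read on the minus strand. MYB spans chr6:135181308-135219172 and is read on the plus strand, so the 5′ ends of the genes face each other across 126 kb. The 45 sites comprised 1 at the HBS1L start, 5 in the HBS1L body, 21 between the genes, 1 at the MYB start, 3 in the MYB body, 8 between the end of MYB and AHI1, 4 in the AHI1 body and 2 beyond the 3′ end of HBS1L. They were 200 to 1440 bases wide (median 650).

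The 250 bases upstream of each gene's start are shown because both lie inside the strongest sites of the window, and both of those sites lost signal. They are from RefSeq, 5′ to 3′ on the strand of the gene, at chr6:135181058-135181307 (plus strand) for MYB and chr6:135054823-135055072 (minus strand) for HBS1L. Capitals mark a match to CCACCC, a motif of KLF factors, on either strand.
MYB promoter: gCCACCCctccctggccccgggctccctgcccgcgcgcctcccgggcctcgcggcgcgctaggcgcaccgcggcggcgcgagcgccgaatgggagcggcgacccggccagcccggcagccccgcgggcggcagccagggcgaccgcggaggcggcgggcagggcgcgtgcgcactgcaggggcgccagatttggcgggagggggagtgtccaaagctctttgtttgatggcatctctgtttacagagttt
HBS1L promoter: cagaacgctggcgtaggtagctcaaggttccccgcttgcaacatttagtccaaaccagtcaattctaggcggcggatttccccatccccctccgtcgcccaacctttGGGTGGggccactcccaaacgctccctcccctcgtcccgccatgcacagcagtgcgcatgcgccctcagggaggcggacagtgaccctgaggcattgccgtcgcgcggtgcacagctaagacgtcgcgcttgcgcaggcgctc
Motifs were searched on both strands of the 300-base RefSeq promoters, which add 50 bases after each start. Each of the 2 promoters held 1 match to CCACCC, which 34.3% of 35116 promoters of that length contain. The GATA factor motifs AGATAA, found in 10.3% of promoters, and TGATAA, found in 7.53%, were in neither. The same was true of TGANTCA for AP-1 (7.71% of promoters), TGTGGT for RUNX (13.1%), GGAAGT for ETS factors (22.8%) and AACNGNC for MYB itself (32.2%). G and C made up 71% of the MYB promoter and 64.7% of the HBS1L promoter, against a median of 58.7%, with 35 and 26 CpG dinucleotides against a median of 14.

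The window also holds a microRNA gene inside HBS1L, MIR3662, whose hairpin at chr6:134979338-134979432 lies within a site that opened at 6 h. Its mature RNA, from RefSeq at chr6:134979355-134979378 on the minus strand, is shown with its seed, bases 2 to 8, in capitals.
hsa-miR-3662: gAAAAUGAugaguagugacugaug

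Site counts summed to between 12258890 and 35548737 per library, and the window held 2862 to 8744 of them. The shallowest library was 6 h replicate 1, with a median of 40 counts per site of the window, and the deepest in the window was 6 h replicate 2, with a median of 121. Counts were scaled by TMM and are given as CPM, the count a site would have in a library of fixed size, listed for replicates 1 and 2 of 0 h, then of 6 h, then of 72 h. Log2 fold changes carry their standard error (SE), and calls are at a Benjamini-Hochberg adjusted p under 0.05 from edgeR's quasi-likelihood test over all 177759 tested sites, among them all 45 of the window. Nothing says that replicates came from separate cultures, so p-values measure only the spread between these libraries. With 2 libraries a group an exact permutation test of a single site cannot go below p = 0.33. In a bulk sample, fewer cells with an open site and a less open site per cell cannot be told apart. Marker genes were read at 0 h, but the share of all genes with such a peak was not counted, so the cell type label was not tested. Of 8 erythroid marker genes 7 had a site within 1000 bases of a gene end. All 7 sites had a deposited peak in both 0 h libraries. For lymphoid markers this was 1 of 5 genes (CD79A), for megakaryocyte markers 3 of 6 and for monocyte or granulocyte markers 2 of 5.

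**Figure D1:**
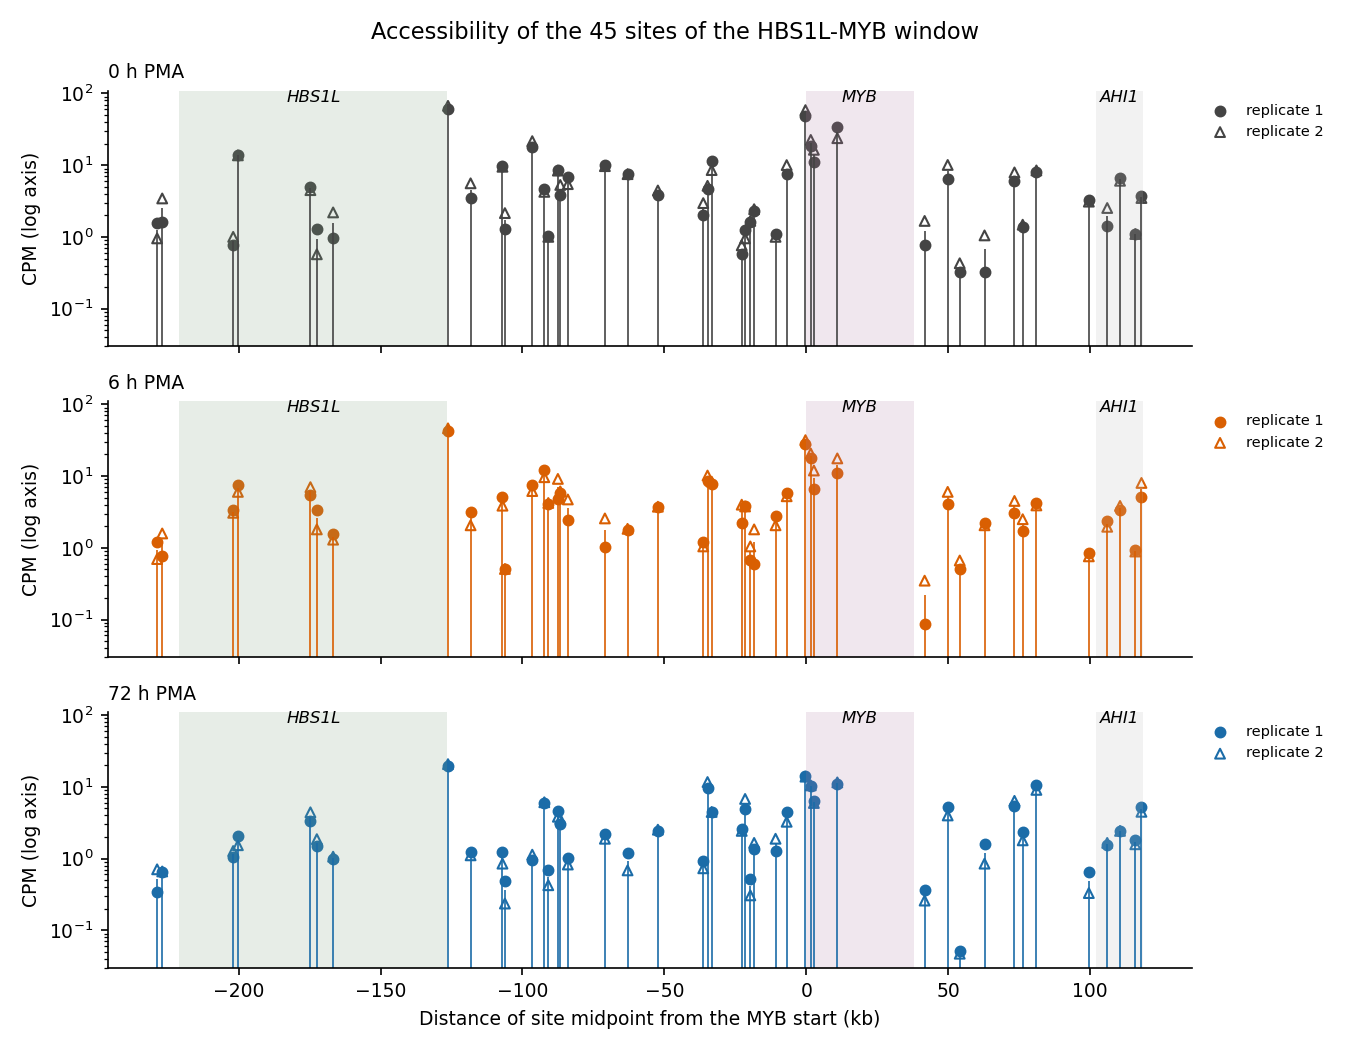
TMM-scaled CPM of each of the 45 sites (log axis) by distance from the MYB start in kb, with a panel for each time; circles are replicate 1, triangles replicate 2, lines end at their mean and shading marks genes. The starts of HBS1L and MYB are the tallest sites at 0 h, and the site at −96.6 kb goes from 17.8 and 21.7 CPM at 0 h to 0.958 and 1.13 at 72 h.

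Most of the changed sites of the window lost accessibility. At 6 h 17 of the 45 sites were called lower and 10 higher, where 16.8% and 23.4% of all tested sites were. By 72 h 26 were lower and 3 higher, against 29.2% and 38.2% of all sites. Between 6 and 72 h 18 fell and 1 rose, against 20.9% and 22.1%. The median log2 fold change over the 45 sites was −0.52 at 6 h and −1.0 at 72 h, while over all tested sites it was 0.05 and 0.29. Promoters and distal sites moved differently in the whole table: at 72 h 68.7% of sites near a protein-coding gene end were lower, but only 24.4% of those away from one. Of the 43 sites of the window away from gene ends, 24 were lower and 3 higher at 72 h (background for higher, 41.4%). At 6 h 15 of these were lower and 10 higher, against 14.4% and 25%.

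The balance of these counts depends on the scaling, because the whole table shifts with it. The median of all sites at 72 h was 0.29 with TMM, 0.11 with RLE size factors, −0.04 with loess offsets, 0.79 with total counts and 1.26 with TMM factors taken only from sites that have a peak in all 6 libraries. With the last of these, the window had 14 higher and 13 lower sites at 72 h, where 57.8% of all sites were higher and 11% lower. The same factors gave 12 higher (29.6% of all sites) and 11 lower (8.7%) at 6 h, and 5 higher (43.3%) and 8 lower (5.24%) from 6 to 72 h. Total counts gave 11 higher (48%) and 22 lower (19.5%) at 72 h, and 5 higher (32.1%) and 10 lower (11.5%) from 6 to 72 h. Called under all 5 scalings were 13 falls (9.39% of all sites) and 3 rises (28%) at 72 h, and 11 falls (8.5%) and 8 rises (18.3%) at 6 h. At the stricter threshold of an adjusted p under 0.01 and a change of more than 1, TMM gave 5 rises (16.4% of all sites) and 9 falls (7.11%) at 6 h, and 9 falls (8.56%) from 6 to 72 h. The median over the window stayed below the median over all sites under each scaling, at −0.03 where all sites were at 1.26.

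**Figure D2:**
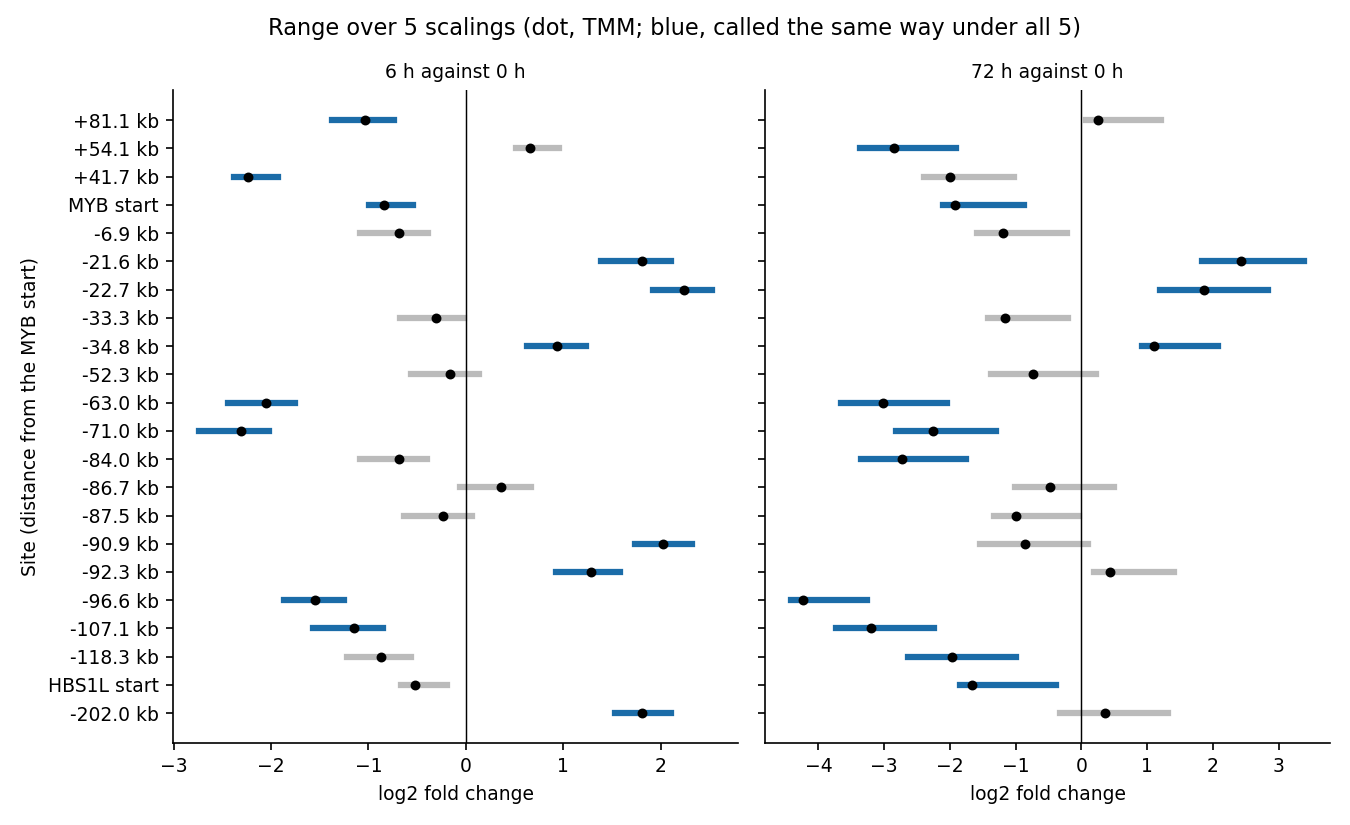
Log2 fold change at 6 h and at 72 h against 0 h of the 22 sites given in full: bars span the 5 scalings, dots are TMM, and blue marks sites called the same way under all 5. At 72 h the sites at −96.6 and −107.1 kb are below 0 and those at −34.8, −22.7 and −21.6 kb above 0 under each scaling.

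The MYB start fell at both times. Its site, chr6:135180338-135181728, measured 48.6 and 58.6 CPM at 0 h, 28.1 and 31.6 after 6 h, and 14.3 and 13.9 after 72 h. The 3 groups did not overlap. The log2 fold change was −0.84 (SE 0.16, adjusted p = 0.00017) at 6 h and −1.93 (SE 0.16, adjusted p = 1.9e-09) at 72 h, a 3.8-fold loss. Under the 5 scalings the change ran from −0.99 to −0.54 at 6 h and from −2.11 to −0.87 at 72 h, and each was called. The later part of the fall, −1.09 from 6 to 72 h, was not called with loess offsets (−0.25, adjusted p = 0.18).

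The HBS1L start, chr6:135054481-135055611, also fell at both times. It measured 60.7 and 67.2 CPM at 0 h, 42.9 and 46.2 after 6 h, and 19.8 and 20.7 after 72 h. All 3 groups were apart. The 6 h change of −0.52 (SE 0.14, adjusted p = 0.0058) was lost with loess offsets (−0.20, adjusted p = 0.22), with the factors from shared peaks (−0.22, adjusted p = 0.2) and without 6 h replicate 1 (−0.47, adjusted p = 0.055). At 72 h the change was −1.66 (SE 0.15, adjusted p = 4.1e-09) and was called under each scaling, from −1.84 to −0.38. From 6 to 72 h it fell by 1.14, which was not called with loess offsets (−0.19, adjusted p = 0.27). Whether the gene starts differed from each other in their change was not tested.

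Inside MYB, 3 sites downstream of the start were lower by 72 h, as were 24.4% of all tested sites away from gene ends. The site at +1.59 kb begins just beyond 1000 bases from the MYB start, the limit for sites near a gene end, of which 68.7% were lower. The 3 sites inside MYB lie outside the rule for sites given in full and were chosen after their values were seen. The site at +1.59 kb measured 18.3 and 22.5 CPM at 0 h, 17.9 and 20.6 after 6 h, and 10.3 and 10.5 after 72 h. Its 6 h libraries lay close to those of 0 h (−0.08), and it fell by 0.98 at 72 h (adjusted p = 6.7e-05). The site at +2.69 kb fell by 1.17 and the one at +10.95 kb by 1.35 at 72 h, and of the 3 sites only +10.95 kb was called at 6 h (−0.97). With the factors from shared peaks the 72 h changes of these 3 sites were −0.01, −0.20 and −0.39, none of them called.

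Both of the best known enhancers lost signal by 72 h. The site at −71 kb, chr6:135110013-135110688, which overlaps the end of the lncRNA gene LOC105378010, had fallen by 6 h. It measured 9.94 and 9.71 CPM at 0 h, 1.02 and 2.56 after 6 h, and 2.20 and 1.89 after 72 h. All treated libraries lay below the untreated ones, and those of 6 h spanned those of 72 h. The change was −2.31 (SE 0.31, adjusted p = 3.9e-06) at 6 h, a 4.95-fold loss, and −2.26 (SE 0.29, adjusted p = 7.1e-07) at 72 h. Between 6 and 72 h the difference was 0.04 (adjusted p = 0.92). Without 6 h replicate 2 the 6 h change was −3.31.

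The site at −84 kb, chr6:135096989-135097586, reached its loss by 72 h. Its libraries gave 6.76 and 5.45 CPM at 0 h, 2.47 and 4.71 after 6 h, and 1.01 and 0.826 after 72 h. The groups did not overlap, but the 6 h replicates differed by nearly as much as their distance from 0 h. At 6 h the change of −0.69 (SE 0.30, adjusted p = 0.074) was not called; it was called with RLE size factors (−0.83, adjusted p = 0.031), with loess offsets (−1.08, adjusted p = 0.0077) and without 6 h replicate 2 (−1.35, adjusted p = 0.013). At 72 h it was −2.73 (SE 0.33, adjusted p = 2.8e-07), a 6.61-fold loss that was called under each scaling. The step from 6 to 72 h was −2.04 (adjusted p = 5e-05) and −1.38 without 6 h replicate 2. Deposited peaks covered the −84 kb site in both 0 h libraries, in 6 h replicate 2 and in neither 72 h library. At −71 kb the only library without a peak was 6 h replicate 1, the shallowest. Whether the courses of these enhancers differed was not tested.

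**Figure D3:**
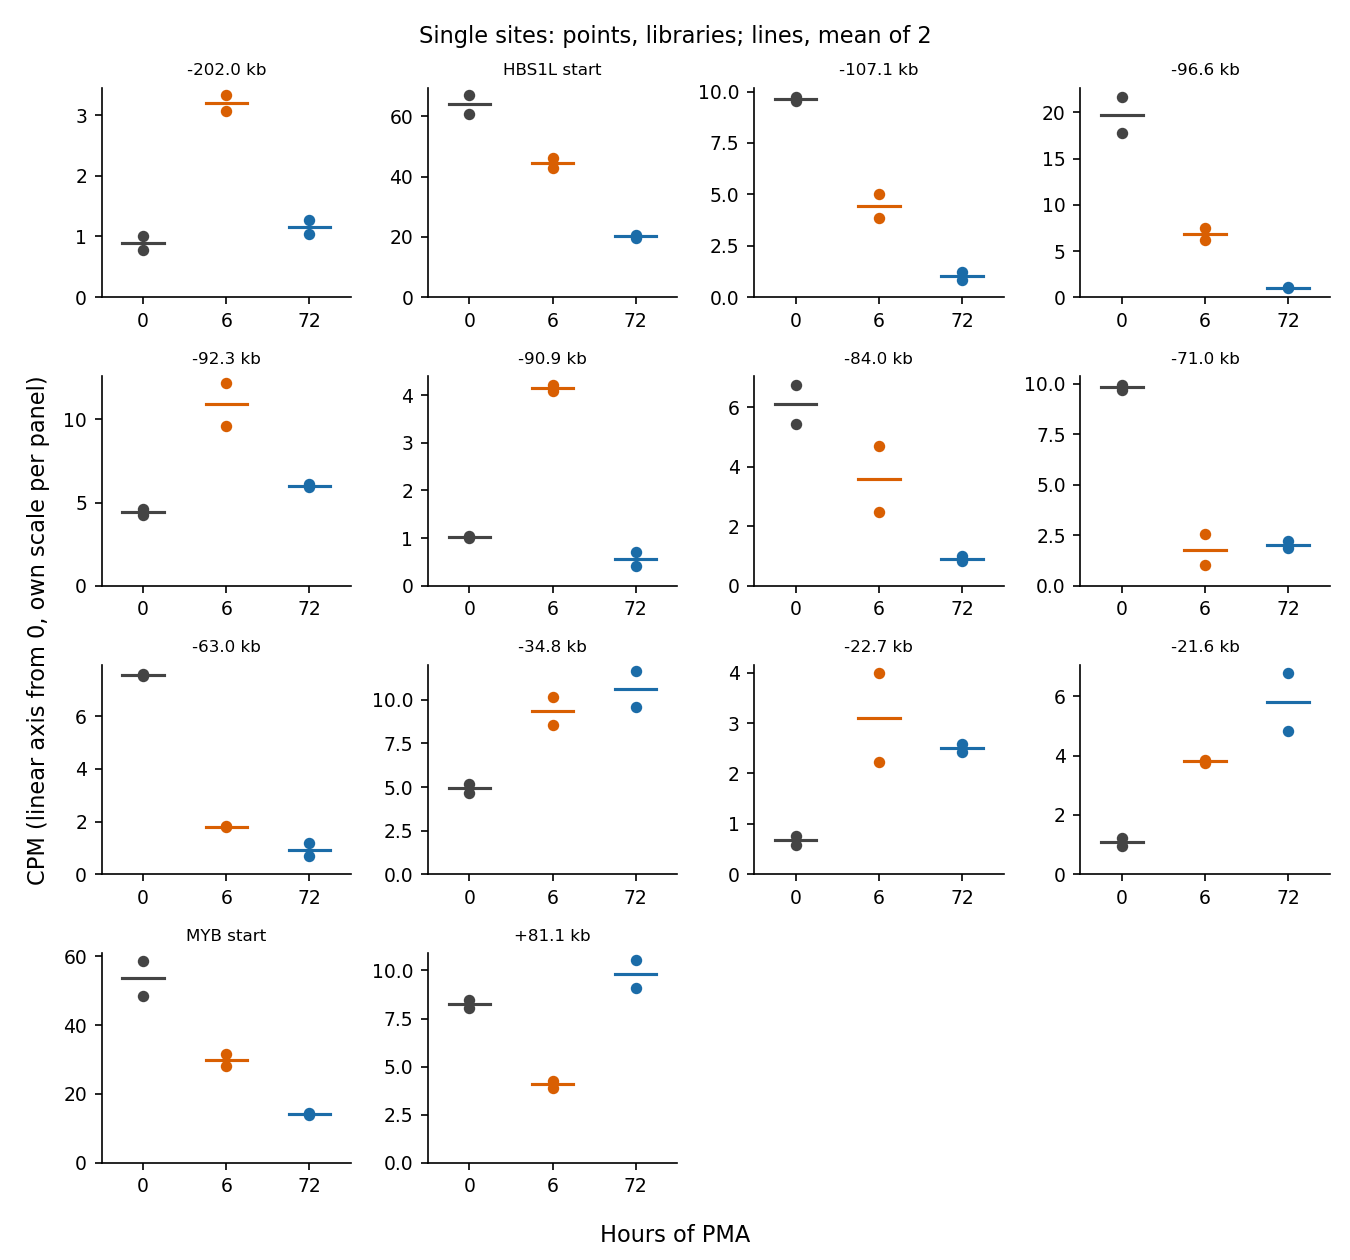
TMM-scaled CPM (linear axis from 0, with its own scale in each panel) of 14 sites at 0, 6 and 72 h of PMA; points are libraries and lines the mean of 2. The −71 kb site is low from 6 h on, the −84 kb site is lowest at 72 h, and the sites at −34.8 and −21.6 kb are higher in all 4 treated libraries.

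The largest loss of the window was at −96.6 kb. This site, chr6:135084352-135085139, was the strongest between the genes at 0 h, with 17.8 and 21.7 CPM. It had 7.50 and 6.17 at 6 h and 0.958 and 1.13 at 72 h, so each group was apart. The change was −1.55 (SE 0.22, adjusted p = 8.4e-06) at 6 h and −4.23 (SE 0.25, adjusted p = 7.3e-11) at 72 h, an 18.8-fold loss. Only 0.208% of all tested sites had a lower value at 72 h. Peaks were deposited there in both 0 h and both 6 h libraries and in neither 72 h library. It was called at each step under each scaling and with any 1 library left out.

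The −107.1 kb and −63.0 kb sites also fell to low levels. At −107.1 kb, chr6:135073920-135074569, the libraries gave 9.75 and 9.51 CPM at 0 h, 5.03 and 3.86 after 6 h, and 1.24 and 0.850 after 72 h. That is a fall in each interval, by 1.14 (adjusted p = 0.0014) and then by 2.06 (adjusted p = 1.1e-05), and 9.21-fold in all. At −63.0 kb, chr6:135117998-135118678, they gave 7.60 and 7.51 at 0 h, 1.79 and 1.84 after 6 h, and 1.19 and 0.684 after 72 h. Most of that loss was present at 6 h, at −2.05 (SE 0.31, adjusted p = 1.7e-05), and it was −3.01 at 72 h (SE 0.31, adjusted p = 3.4e-08). The step from 6 to 72 h at −63.0 kb (−0.96, adjusted p = 0.027) was not called without 6 h replicate 2 (−0.89) or without 72 h replicate 2 (−0.55), with total counts (−0.59) or with the factors from shared peaks (−0.29). The shares of the strongest intergenic site and of −71 kb against the MYB start do not depend on the scaling between libraries. Counts at −96.6 kb were 36.7% and 37.0% of those at the MYB start at 0 h, 26.7% and 19.5% after 6 h, and 6.68% and 8.18% after 72 h. Counts at −71 kb were 20.5% and 16.6%, then 3.64% and 8.11%, then 15.3% and 13.6%. Relative to the MYB start, the −96.6 kb site was thus lowest at 72 h and the −71 kb site at 6 h.

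Weaker falls were seen at other intergenic sites. The −118.3 kb site measured 3.44 and 5.59 CPM at 0 h, 3.16 and 2.06 after 6 h, and 1.22 and 1.11 after 72 h. It fell by 1.97 at 72 h (adjusted p = 2.3e-05), called under each scaling. Its 6 h call (−0.87, adjusted p = 0.042) was lost without 0 h replicate 2 (−0.46), without 6 h replicate 2 (−0.59) or without either 72 h library (−0.91 each), with total counts (−0.73) and with the factors from shared peaks (−0.56). The −33.3 kb site measured 11.6 and 8.56 CPM, then 7.76 and 8.35, then 4.45 and 4.46. It fell by 1.17 at 72 h (adjusted p = 0.00012), and by 0.20, not called, with the factors from shared peaks. The −6.9 kb site, nearest to the MYB start, measured 7.60 and 10.0 CPM, then 5.88 and 5.22, then 4.48 and 3.26. It fell by 1.20 at 72 h (adjusted p = 0.00022), and by 0.22, not called, with the factors from shared peaks. Its 6 h call (−0.69, adjusted p = 0.035) was lost without 0 h replicate 2 (−0.46), 6 h replicate 1 (−0.76) or 6 h replicate 2 (−0.65), with total counts (−0.55) and with the factors from shared peaks (−0.39).

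Next to the −84 kb site, 2 sites were not called at 6 h against 0 h. The −86.7 kb site measured 3.9 and 5.31 CPM at 0 h, 5.80 and 6.11 after 6 h, and 3.08 and 3.56 after 72 h, and neither time was called against 0 h (0.36 and −0.48). It fell by 0.84 from 6 to 72 h (adjusted p = 0.010), a call lost without 6 h replicate 2 (−0.75), without 72 h replicate 1 (−0.70) or 2 (−0.90), with total counts (−0.48) and with the factors from shared peaks (−0.17). The −87.5 kb site measured 8.51 and 8.41 CPM at 0 h, 4.78 and 9.11 after 6 h, and 4.63 and 3.82 after 72 h, with 6 h replicates on either side of 0 h. It fell by 1.0 at 72 h (adjusted p = 0.0021), a call lost with total counts (−0.50) and with the factors from shared peaks (−0.03). Its fall of 0.77 from 6 to 72 h (adjusted p = 0.022) was 0.13 without 6 h replicate 2, and it was also lost without 72 h replicate 1 (−0.85) or 2 (−0.57) and with both of those scalings (−0.40 and −0.09). The −52.3 kb site measured 3.83 and 4.45 CPM, then 3.67 and 3.73, then 2.43 and 2.53. Its 72 h fall of 0.74 (adjusted p = 0.02) was not called without 0 h replicate 2 (−0.63) or without either 72 h library (−0.72 and −0.77) or with total counts (−0.24), and its sign turned with the factors from shared peaks (0.23).

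The part of the interval nearest to MYB held the only 3 sites of the window that were called higher at both times. The −34.8 kb site, chr6:135146026-135147011, measured 4.68 and 5.16 CPM at 0 h, 8.53 and 10.2 after 6 h, and 9.58 and 11.7 after 72 h. It rose by 0.93 at 6 h (SE 0.23, adjusted p = 0.0027) and by 1.11 at 72 h (SE 0.23, adjusted p = 0.00019), 2.15-fold. Without 6 h replicate 2 the 6 h change was 0.73 (adjusted p = 0.061). Its neighbour at −33.3 kb, described above, fell over the same course.

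The sites at −22.7 and −21.6 kb were weak in untreated cells and rose. At −22.7 kb, chr6:135158293-135158850, the libraries gave 0.585 and 0.765 CPM at 0 h, 2.22 and 3.99 after 6 h, and 2.59 and 2.43 after 72 h. The rise was 2.23 at 6 h (SE 0.40, adjusted p = 0.00014), 4.71-fold, and 1.87 at 72 h (SE 0.40, adjusted p = 0.00031). Without 6 h replicate 2 the 6 h rise was 1.63. At −21.6 kb, chr6:135159413-135160113, they gave 1.23 and 0.956 at 0 h, 3.84 and 3.77 after 6 h, and 4.84 and 6.77 after 72 h. The rise was 1.81 at 6 h (SE 0.34, adjusted p = 0.00019) and 2.42 at 72 h (SE 0.32, adjusted p = 9.4e-07), 5.35-fold. None of these 3 sites had a deposited peak at 0 h, and each had one in both 72 h libraries. The 72 h rises were called under each scaling, and their libraries did not overlap those of 0 h. Against the MYB start the counts at −34.8 kb went from 9.64% and 8.81% at 0 h to 66.8% and 84.2% at 72 h, and those at −21.6 kb from 2.54% and 1.63% to 33.8% and 48.9%.

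**Figure D4:**
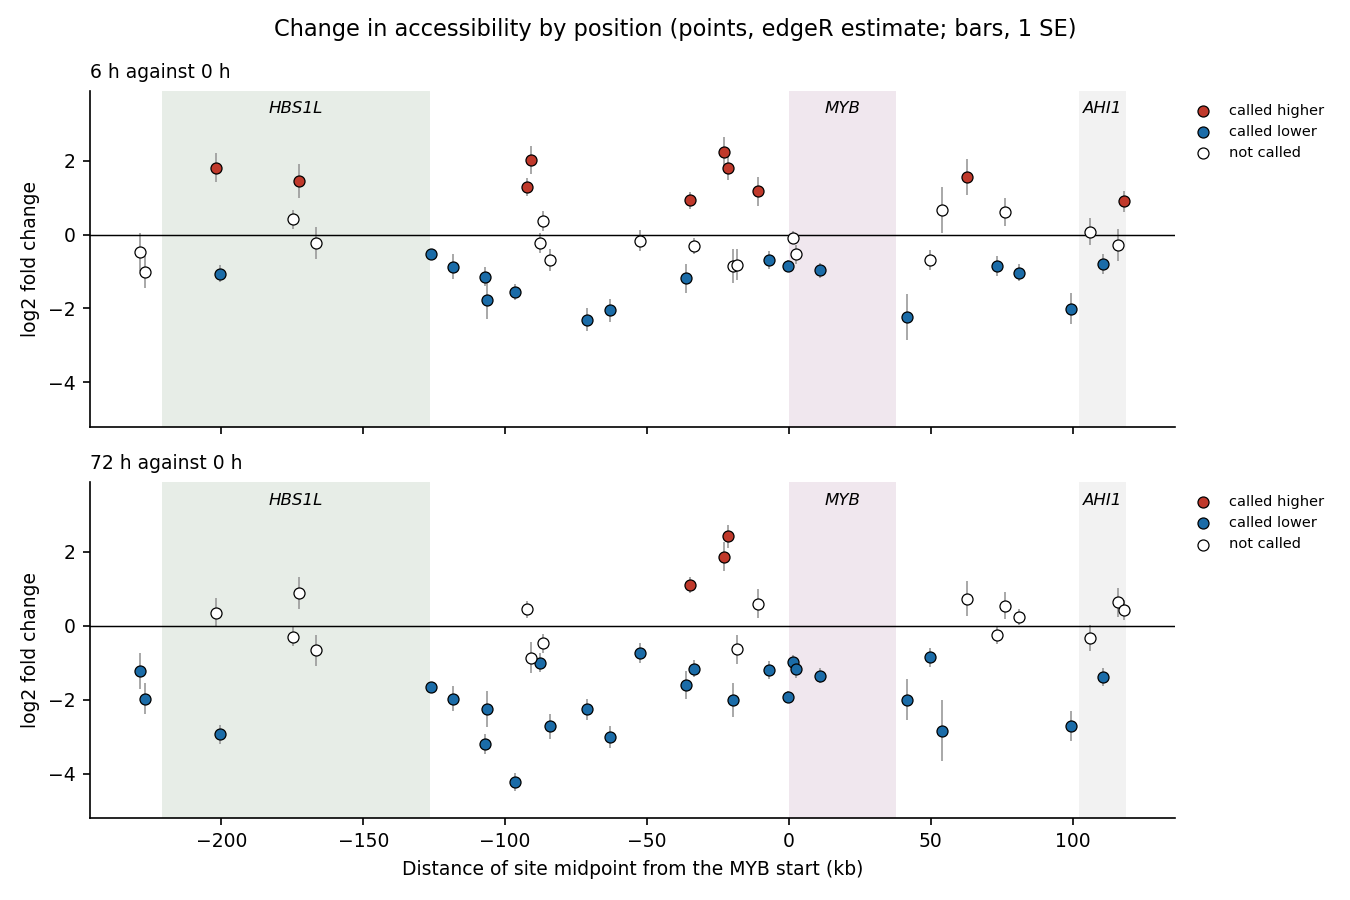
Log2 fold change of each of the 45 sites by distance from the MYB start in kb, at 6 h and at 72 h against 0 h, with bars of 1 SE and colours for called higher, called lower and not called. Falls lie along the whole interval, and the sites called higher at 72 h are at −34.8, −22.7 and −21.6 kb.

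In 3 sites of the window a gain at 6 h was followed by a called fall, a course that 4.59% of all tested sites had. At −92.3 kb, chr6:135088657-135089336, the libraries gave 4.61 and 4.26 CPM at 0 h, 12.2 and 9.62 after 6 h, and 5.93 and 6.09 after 72 h. The 6 h rise was 1.29 (SE 0.24, adjusted p = 0.00017), 2.44-fold. At 72 h it was 0.44 above 0 h (adjusted p = 0.10), a difference that was called with total counts (0.94) and with the factors from shared peaks (1.41). The fall from 6 to 72 h (−0.84, adjusted p = 0.0041) was not called without 72 h replicate 1 (−0.78) or replicate 2 (−0.81), with total counts (−0.48) or with the factors from shared peaks (−0.17). At −90.9 kb, chr6:135090201-135090600, they gave 1.04 and 1.00 CPM, then 4.09 and 4.21, then 0.699 and 0.425. That site rose by 2.02 at 6 h (SE 0.38, adjusted p = 0.00018) and fell by 2.89 from 6 to 72 h (SE 0.37, adjusted p = 3.5e-06), 7.39-fold, though no deposited peak of any library covered it.

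The third of these sites holds the MIR3662 hairpin. This site at −202 kb, chr6:134979073-134979618, in the body of HBS1L, measured 0.780 and 1.00 CPM at 0 h, 3.33 and 3.07 after 6 h, and 1.04 and 1.27 after 72 h. Both 6 h libraries were above all others. It rose by 1.81 at 6 h (SE 0.38, adjusted p = 0.00069), 3.51-fold, called under each scaling, and fell by 1.45 from 6 to 72 h (SE 0.34, adjusted p = 0.0017). Without 72 h replicate 1 that fall was 1.27 (adjusted p = 0.05), and with the factors from shared peaks it was 0.79 and not called. ATAC-seq gives no level of the microRNA shown above. Its neighbour at −200.3 kb, chosen after its values were seen, went the other way, from 14 and 13.7 CPM at 0 h to 7.50 and 6.01 at 6 h and 2.07 and 1.53 at 72 h. It fell by 2.94 at 72 h (adjusted p = 2.5e-09).

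Beyond MYB, 8 sites lay between its 3′ end and AHI1. By 72 h 4 of these had fallen and none had risen, against 24.4% and 41.4% of all tested sites away from gene ends. At 6 h 4 had fallen and 1 had risen, against 14.4% and 25%. The strongest of the 8 was at +81.1 kb, chr6:135261881-135262958. It was the only site of the window with a called fall at 6 h and then a called rise, as 1.92% of all tested sites had. The +73.4 kb site, picked after its values were seen, also fell at 6 h (−0.85, adjusted p = 0.013). Its later rise of 0.60 was not called (adjusted p = 0.062), but was with total counts (0.97), the factors from shared peaks (1.27) and the replicate block (0.64). The +81.1 kb site measured 8.06 and 8.46 CPM at 0 h, 4.26 and 3.89 after 6 h, and 10.6 and 9.06 after 72 h. The 6 h fall was 1.03 (SE 0.24, adjusted p = 0.0014) and the rise from 6 to 72 h was 1.28 (SE 0.23, adjusted p = 0.00013), each called under each scaling. At 72 h it was 0.25 above 0 h (adjusted p = 0.32), which was called with total counts (0.75) and with the factors from shared peaks (1.22).

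Weak sites of that stretch had too few counts to place firmly. The +41.7 kb site had 12 and 35 counts at 0 h, 1 and 11 after 6 h, and 14 and 11 after 72 h. Its falls of 2.23 at 6 h (adjusted p = 0.0072) and 2.0 at 72 h (adjusted p = 0.0032) were lost without 0 h replicate 2 (−1.55 and −1.32). The 6 h fall was 3.86 without 6 h replicate 2, and the 72 h call was lost without 72 h replicate 2 (−1.77, adjusted p = 0.055) and with the factors from shared peaks (−1.03). The +54.1 kb site had 5 and 9 counts, then 6 and 21, then 2 in each 72 h library. It fell by 3.50 from 6 to 72 h (adjusted p = 0.00077).

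Beside the sites given in full, the rest of the window included 5 of the 21 intergenic sites, all under 2 CPM on average. Those at −106.2, −36.3 and −19.71 kb were lower at 72 h, with log2 fold changes of −2.26, −1.59 and −2.0, and none of the 5 was higher then. With the factors from shared peaks −36.3 kb (−0.62) and −19.71 kb (−1.03) were not called. In the AHI1 body 1 of 4 sites was lower and none higher at 72 h, and at 6 h 1 was lower and 1 higher. Of all tested sites away from gene ends, 24.4% were lower and 41.4% higher at 72 h, and 14.4% and 25% at 6 h. At the edges of the window, the last site inside its high end changed by 0.90 at 6 h and the first outside it by −1.42. At the low end the changes at 72 h were −1.23 inside and 0.48 outside.

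Counted over sections, the starts of the genes gave up part of the window's reads. The MYB start held 13.9% (exact binomial 95% interval 13.0 to 14.9, counting error only) and 15.4% of the window's counts at 0 h, 11.5% and 11.4% after 6 h, and 8.74% and 8.49% after 72 h. The HBS1L start held 17.4% and 17.6%, then 17.6% and 16.7%, then 12.0% and 12.7%. The 21 sites between the genes held 31.9% and 31.1%, then 35.0% and 33.2%, then 33.6% and 34.5%, a share that moved little although single sites fell and rose. The sites beyond MYB held 7.66% and 8.99%, then 6.88% and 7.49%, then 16.0% and 13.9%. These shares do not depend on the scaling between libraries. The window as a whole summed to 304 and 326 CPM of unscaled totals at 0 h, 233 and 260 after 6 h, and 205 and 194 after 72 h.

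**Figure D5:**
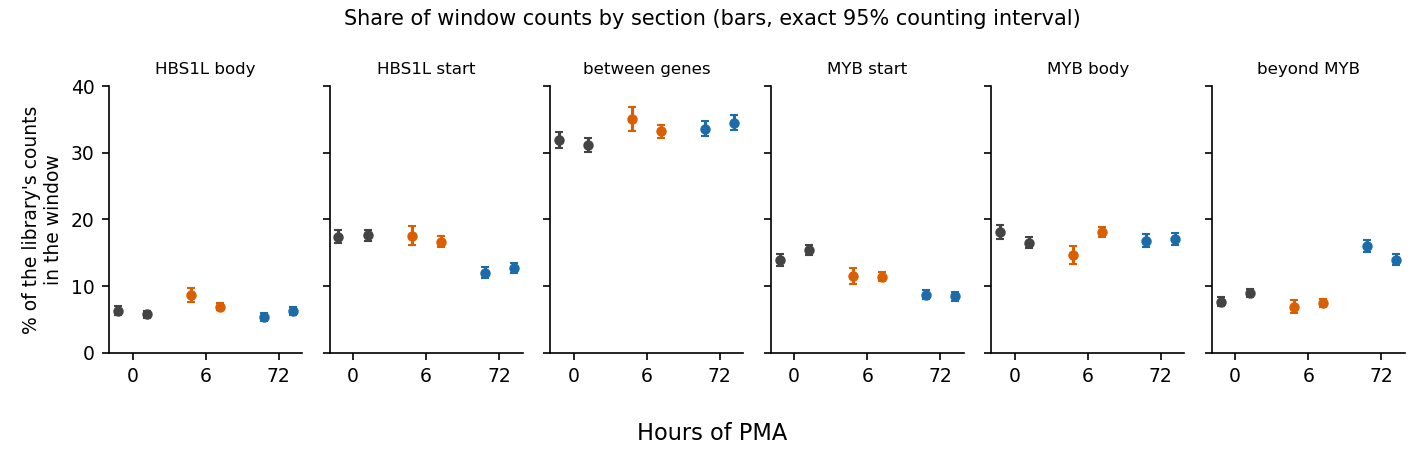
Share of the window's counts (percent) in 6 of the sections, per library at 0, 6 and 72 h of PMA, with exact binomial 95% intervals. The MYB start goes from 13.9% and 15.4% at 0 h to 8.74% and 8.49% at 72 h, and the sites beyond MYB rise to 16.0% and 13.9%.

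Calls by site followed several courses. Of the 17 sites lower at 6 h, 7 fell again by 72 h in a called step, 9 had no called step and 1 rose. Among all tested sites 29833 were lower at 6 h. Of those, 10862 fell again (6.11% of all tested sites), 15561 had no called step and 3410 rose. Of the 10 sites higher at 6 h, none rose again, 3 fell and 7 had no called step. Among all tested sites 41515 were higher at 6 h. Of those, 9799 rose again (5.51% of all tested sites), 8157 fell and 23559 had no called step. Lower at both times against 0 h were 15 sites (14.3% of all tested sites), and 3 were higher at both (19.7%). Between the genes 13 of 21 sites were lower and 3 higher at 72 h, where 24.4% and 41.4% of all tested sites away from gene ends were. At 6 h 8 of the 21 were lower and 6 higher, against 14.4% and 25%. The share higher at 6 h (28.6%) was thus near that of all such sites.

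Peak calls in the window gave 26 and 34 peaks at 0 h, 23 and 36 after 6 h, and 33 and 32 after 72 h. The mean was 30.0 ± 5.66 (SD, n = 2) at 0 h and 32.5 ± 0.707 (SD, n = 2) at 72 h. The libraries differ in depth, and at 0 and 6 h the shallower one had fewer peaks, so these numbers are not compared between times. Of the 45 sites 10 had a peak in all 6 libraries and 3 in none.

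Genes tied to these enhancers were read at their own starts. The list held factors that bind the interval (GATA1, TAL1, LDB1, LMO2, KLF1, RUNX1, EP300, CREBBP), MYB relatives and partners, and genes known to respond to MYB, 18 in all, 16 of them with a site within 1000 bases of a gene end. At 72 h 15 of the 16 were lower and none higher, with a median of −1.39. Of sites near either end of a protein-coding gene, a set not limited to gene starts, 68.7% were lower and 12.3% higher. At 6 h 7 were lower and none higher, against 36.2% and 9.96%, and from 6 to 72 h 13 were lower and none higher, against 60.6% and 6.42%. GATA1, the erythroid master regulator, fell by 1.99 at 6 h and was at −1.41 at 72 h. TAL1, its partner in the enhancer complex, fell by 0.59 and then stood at −1.58. LDB1, which brings enhancer and promoter together, was not called at 6 h (0.18) and fell by 0.99 at 72 h. BCL2, a survival gene that MYB activates, fell by 2.5 at 72 h. CCNA1 was the one not called at 72 h (−0.52). All 7 erythroid marker sites, GATA1 and TAL1 among them, were called lower at both times. Of the marker sites of other cell types, ITGA2B (megakaryocyte; −1.47 and −0.84), SPI1 (−0.94 and −1.71) and LYZ (−0.56 and −1.48), of the monocyte or granulocyte list, were lower at both times too. CSF1R, of the same list, rose (1.1 and 1.83). MS4A1 of the lymphoid list was also called higher (2.32, SE 0.88, and 2.61, SE 0.82), but from very few reads. Its site had 0.26 and 0 CPM at 0 h, 0.60 and 0.57 after 6 h, and 0.52 and 0.90 after 72 h. Of the 3 megakaryocyte marker sites tested, none was called higher against 0 h. From 6 to 72 h ITGA2B was called higher (0.62, adjusted p = 0.014), ITGB3 lower (−0.66, adjusted p = 0.010) and GP1BA neither (−0.02).

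The authors' deposited table gives its own log2 fold changes for these sites. In the authors' deposited table the change of −96.6 kb was −1.64 at 6 h and −4.38 at 72 h, that of −71 kb was −2.45 and −2.36, and that of the MYB start was −0.96 and −2.08. Signs in the authors' deposited table matched those above for 44 of 45 sites at 6 h and 45 of 45 at 72 h, from the same counts. Its adjusted p-value labelled for 6 h was under 0.05 in 33 of the 45 sites, against 57.3% of all sites. Among these was +1.59 kb, where the authors' change was −0.22 at 6 h and −1.13 at 72 h. Which comparison that p-value tests is not known here, so the 33 sites are not set against the 6 h calls above. Its class names were not used, since of 12 sites of the window in a class other than static, 5 had a class of the opposite direction to the table's own fold changes at both times.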

How the data were processed

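The deposited site table holds counts of reads per site and library, which the authors made before deposit; the values are whole numbers with a different total in each library and were treated as raw counts. Per the submitters' processing notes the build is hg38, and the tools named, without their roles, are Trim Galore 0.4.3, BWA 0.7.17, SAMtools 1.9, deepTools 3.0.1, MACS2, bedtools 2.26 and DESeq. How the site list was made, any shift of read ends and the read filters are not given in the sources used here. The authors' table also gives log2 fold changes, adjusted p-values and class names. The authors' peak lists, one per library, hold a score, a fold enrichment and −log10 p and q values per peak, used here only to say where peaks lie and to filter them. The table's starts are counted from 0 and were raised by 1.

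Counts were fitted with edgeR 4.0.16 in R 4.3.3 (TMM, filterByExpr with a minimum count of 10, which left 177759 sites and removed 3376; quasi-likelihood F test, 3 time groups, all 6 libraries). CPM is the count over the TMM-scaled total. Alternatives were RLE, total counts, loess offsets, TMM factors from shared peaks, no filter, DESeq2 1.42.0, a stricter threshold, the replicate block, each library left out and only the libraries of the groups compared. Peaks overlapped a site by at least 1 base. The code was tested on simulated counts.

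The members, lists and tests were chosen with earlier results of these data known. Sites given in full were the gene starts, those nearest to 84 and 71 kb, intergenic sites of at least 2 CPM on average, the 3 largest called changes in each direction and contrast among sites whose libraries do not overlap, and sites that reversed. The genome was not used here, so no enhancer sequence is printed. Replicates of a group differed by more than counting noise (chi-square per degree of freedom 3.50 to 4.95), so all were kept.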

Additional observations from a re-analysis of the deposited data

How the results depend on the processing

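DESeq2, no filter on low counts and the replicate block kept the call of all 66 values of the sites given in full. The replicate numbers were checked for pairing. The deposited names of same-numbered libraries share an ending at each time, and nothing says what it stands for. Deviations of same-numbered libraries correlated at 0.13 (0 and 6 h), 0.076 (0 and 72 h) and 0.118 (6 and 72 h). Noise in single libraries lowers such correlations, so these low positive values cannot exclude pairing. The main fit left the replicate number out, and the fit with the replicate block is given beside it. With the replicate block, 10 sites were called higher and 20 lower at 6 h, 3 and 26 at 72 h, and 2 and 18 from 6 to 72 h. Over all sites that fit called 24% higher and 18.1% lower at 6 h, 38.6% and 29.6% at 72 h, and 22.7% and 22% from 6 to 72 h. Depth limits the window's weak sites, and 6 h replicate 1 is the shallowest library. Where a library is left out, its lone partner is assumed to vary like the other groups.

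At 6 h against 0 h an adjusted p under 0.01 with an absolute log2 change above 1 gave 5 higher and 9 lower sites. The factors from shared peaks gave 11 lower. Without 0 h replicate 2 fewer falls were called than in the main fit, in the window and over all sites. With 1 library left out in turn, the window's median at 6 h ran from −0.65 to −0.35. That of all sites ran from −0.003 to 0.075. At 72 h against 0 h total counts gave 11 higher, and the factors from shared peaks 14 higher and 13 lower. From 6 to 72 h total counts gave 5 higher and 10 lower, the factors from shared peaks 5 and 8, the stricter threshold 9 lower, and the fit on only the libraries compared 3 higher; leaving out 1 library gave 1 to 4 higher and 10 to 21 lower, with 10 lower without either 72 h library. The cause was not tested. In the fit on the 0 and 72 h libraries alone 44 of the 45 sites were tested.

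Among the sites given in full the sign turned for some differences, of which only the 72 h fall of −52.3 kb (−0.74) had been called. Outside them, called falls also turned with the factors from shared peaks. These were the 72 h fall at +49.85 kb (−0.85, turned to 0.12) and the fall from 6 to 72 h at +2.69 kb (−0.63, turned to 0.042). Of the sites given in full, the factors from shared peaks turned −90.9 kb (0.10), −86.7 kb (0.49) and −52.3 kb (0.23) at 72 h. They turned −87.5 kb (0.061) and −52.3 kb (0.13) at 6 h, and −52.3 kb (0.093), −22.7 kb (0.31) and −6.9 kb (0.16) from 6 to 72 h. With loess offsets the sign turned for −202 kb at 72 h (−0.33), −86.7 kb at 6 h (−0.061), and −71 kb (−0.087) and +41.7 kb (−0.13) from 6 to 72 h. Total counts turned −86.7 kb at 72 h (0.020) and −22.7 kb from 6 to 72 h (0.0018). Leaving out 1 library in turn gave −0.88 to 0.11 for −87.5 kb at 6 h. From 6 to 72 h it gave −0.33 to 1.04 for −71 kb, −0.67 to 0.23 for −22.7 kb and −0.17 to 1.85 for +41.7 kb.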
